A study of Homo sapiens with 6 samples.

Results

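The transcripts described are 49 host transcripts of small RNAs: genes known to carry a microRNA, a small nucleolar RNA (snoRNA) or a related RNA. Rows named for a microRNA itself are counted with these hosts. They were taken from the 29476 genes of the count table by symbol, as the names that begin with MIR and end with HG, the names of MIR and a number, the names of SNHG and a number, GAS5 and DLEU2, if they had at least 30 reads in total over the 6 libraries. The selection used no difference between the groups. It gave 20 snoRNA hosts and 29 microRNA hosts. Of the microRNA hosts, 19 are host genes and 10 are rows named for a microRNA itself. A further 126 of the 175 rows with such names had fewer reads, 4 of them snoRNA hosts. Just under the limit stood MIR4263 with 29 reads and MIR3064 with 23, and just above it MIR1304 with 30 and MIR4737 with 31.

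RNA-seq of polyadenylated RNA was performed in A549, an established human lung adenocarcinoma cell line. The 3 biological replicates of one group received a nontargeting control siRNA (siCtrl) and the 3 of the other an siRNA against DDX17 (siDDX17), with no other difference in treatment given in the labels. A single siRNA against DDX17 was used, so a response to the loss of DDX17 and a response to that siRNA's sequence cannot be told apart. The labels give no age and no further allele, and they describe the control cells under genotype as carrying a control plasmid, whereas the titles call them siCtrl.

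MicroRNA host genes are transcribed by RNA polymerase II. The nuclear enzyme DROSHA, with its partner DGCR8, cuts a hairpin out of the host transcript, usually from an intron, and DICER1 trims it to the mature microRNA, which pairs with messenger RNAs mainly through its seed, the bases 2 to 8. DDX17 and its paralog DDX5 are RNA helicases that associate with the DROSHA complex. The snoRNAs are released differently, by trimming of an excised and debranched intron. Box C/D snoRNAs guide methylation and box H/ACA snoRNAs guide pseudouridylation of ribosomal RNA, and the related small Cajal body RNAs (scaRNAs) act on spliceosomal RNAs. The spliced exons of many snoRNA hosts are ribosome-bound RNAs that are degraded by nonsense-mediated decay. Libraries of this kind measure the polyadenylated host, not the small RNA: the 221 rows named for a snoRNA or scaRNA together had between 1103 and 1495 reads per library.

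The mature microRNAs of the hosts that differed between the groups are shown first, because their seeds tell which hosts carry related microRNAs. Sequences and positions are those of RefSeq on GRCh38.p14, in which all 39 hairpins annotated in 21 of the hosts were found, and capitals mark the seed.
hsa-miR-99a-5p (in MIR99AHG, chr21:16539101-16539122, plus strand): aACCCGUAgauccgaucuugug
hsa-let-7c-5p (in MIR99AHG, chr21:16539838-16539859, plus strand): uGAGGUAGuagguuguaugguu
hsa-miR-125b-5p (in MIR99AHG, chr21:16590253-16590274, plus strand): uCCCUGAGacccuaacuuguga
hsa-miR-31-5p (in MIR31HG, chr9:21512158-21512178, minus strand): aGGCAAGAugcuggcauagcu
hsa-miR-221-3p (in MIR222HG, chrX:45746180-45746202, minus strand): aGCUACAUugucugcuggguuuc
hsa-miR-222-3p (in MIR222HG, chrX:45747036-45747056, minus strand): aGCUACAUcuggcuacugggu
hsa-miR-762 (in MIR762HG, chr16:30893951-30893972, plus strand): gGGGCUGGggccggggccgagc
hsa-miR-4697-3p (in MIR4697HG, chr11:133898506-133898529, minus strand): uGUCAGUGacuccugccccuuggu
hsa-miR-15a-5p (in DLEU2, chr13:50049167-50049188, minus strand): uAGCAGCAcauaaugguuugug
hsa-miR-16-5p (in DLEU2, chr13:50049027-50049048, minus strand): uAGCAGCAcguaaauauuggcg
hsa-miR-22-3p (in MIR22HG, chr17:1713914-1713935, minus strand): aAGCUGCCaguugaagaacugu
hsa-miR-4435 (in MIR4435-2HG, chr2:111321061-111321082, minus strand): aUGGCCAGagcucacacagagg
The members of each of the pairs miR-221 and miR-222, and miR-15a and miR-16, have the same seed within 1 host. The cluster of MIR99AHG has a counterpart on another chromosome, that of MIR100HG, with the same 3 seeds in the same kinds of microRNA, and it is shown for comparison.
hsa-miR-100-5p (in MIR100HG, chr11:122152275-122152296, minus strand): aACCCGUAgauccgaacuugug
hsa-let-7a-5p (in MIR100HG, chr11:122146568-122146589, minus strand): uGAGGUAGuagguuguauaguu
hsa-miR-125b-5p (in MIR100HG, chr11:122099809-122099830, minus strand): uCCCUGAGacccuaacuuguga
The hairpins of MIR99AHG, MIR31HG, MIR222HG, MIR762HG, DLEU2 and MIR4435-2HG lie in introns of the canonical transcript in GENCODE release 44, whereas that of MIR22HG lies in an exon.

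For the snoRNA hosts, 1 small RNA from each of 5 hosts that differed between the groups is shown, to let a reader see which class each host carries. The strings and positions are those of the small RNA transcripts of GENCODE release 44 on GRCh38. Capitals mark the ACA box near the 3' end of the box H/ACA RNAs and of the scaRNA, and the C box (TGATGA) and the D box (CTGA) of the box C/D snoRNA.
SNORA24 (in SNHG8, chr4:118279190-118279320, plus strand): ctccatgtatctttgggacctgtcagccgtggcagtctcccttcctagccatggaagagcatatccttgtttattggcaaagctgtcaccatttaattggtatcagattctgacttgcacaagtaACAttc
SNORA17A (in SNHG7, chr9:136726747-136726879, minus strand): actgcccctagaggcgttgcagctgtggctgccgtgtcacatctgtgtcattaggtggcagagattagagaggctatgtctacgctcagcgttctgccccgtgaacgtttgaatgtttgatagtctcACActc
SNORA78 (in SNHG9, chr16:1965184-1965310, plus strand): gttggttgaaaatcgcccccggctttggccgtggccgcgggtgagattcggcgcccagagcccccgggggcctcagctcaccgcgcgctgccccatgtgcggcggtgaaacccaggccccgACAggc
SNORD1B (in SNHG16, chr17:76561109-76561192, plus strand): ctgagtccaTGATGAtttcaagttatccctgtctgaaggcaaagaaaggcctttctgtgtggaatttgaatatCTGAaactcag
SCARNA15 (in SNHG21, chr15:82755945-82756071, plus strand): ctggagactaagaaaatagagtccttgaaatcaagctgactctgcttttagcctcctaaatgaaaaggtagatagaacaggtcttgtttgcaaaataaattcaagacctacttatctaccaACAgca
All 5 lie in introns of their host. SNORA9 of SNHG15, a host that also differed between the groups, is not shown and lies in an exon of the canonical transcript. By the RefSeq snoRNAs inside them, 9 of the 20 snoRNA hosts carry mainly box H/ACA snoRNAs, 7 mainly box C/D snoRNAs, 3 a scaRNA (SNHG10, SNHG20 and SNHG21) and 1, SNHG25, a snoRNA of each kind.

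The libraries held between 30658136 and 39182371 counted reads. The target itself fell as labelled: DDX17 was at 189 ± 14.9 CPM in siCtrl and at 31.1 ± 0.877 CPM in siDDX17 (CPM being TMM-scaled reads relative to the library total, mean ± SD, n = 3), a log2 fold change of -2.60 ± 0.07 (SE; adjusted p = 5.89e-11, quasi-likelihood test of edgeR, Benjamini-Hochberg adjusted over 15615 tested genes). DDX5 did not pass the test (-0.11, adjusted p = 0.142 by the same test), but it passed without siCtrl 1 (-0.16, adjusted p = 0.0043). The epithelial keratins KRT8 and KRT18 were at 2161 CPM or more in every library, although KRT8 (-0.28), KRT18 (-0.18) and KRT19 (-0.32) fell past the test, and CDH1 was at 14.7 or more. The alveolar type II marker SFTPC was at most at 0.156 and the leukocyte marker PTPRC at most at 0.0591. EPCAM was low, at 0.738 to 1.08 CPM in siCtrl and 2.21 to 2.28 in siDDX17. Of the genes typical of mesenchymal cells, COL1A1 was at 2.46 to 3.55 CPM, and ACTA2 rose from between 9.51 and 11.3 CPM to between 24.2 and 28.3 (1.31, adjusted p = 1.05e-07). The part of these shifts in the results for the hosts was not tested. The control library siCtrl 1 stood apart: the biological coefficient of variation, the relative spread between replicates, was 0.0754 with it and 0.0472 without it.

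Levels per length, in the FPKM of the deposited table, separated the groups of hosts. The snoRNA hosts had a median of 10.2 FPKM in siCtrl, from 1.04 for SNHG14 to 240 for SNHG5, and 10 of the 20 were above 10 FPKM. The 19 microRNA host genes had a median of 0.62 FPKM and 14 of them were under 1. The highest of these was MIR4435-2HG, at 8.28 ± 0.577 FPKM (SD, n = 3). SNHG5 was followed by GAS5 (130 ± 9.09), SNHG6 (113 ± 7.82) and SNHG8 (99.6 ± 12.5), and the libraries of SNHG6 and SNHG8 overlapped. The rows named for a microRNA itself had a median of 1.80 FPKM, on few reads: at most 352 in total over the 6 libraries, and their FPKM is divided by a very short length.

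**Figure D1:**
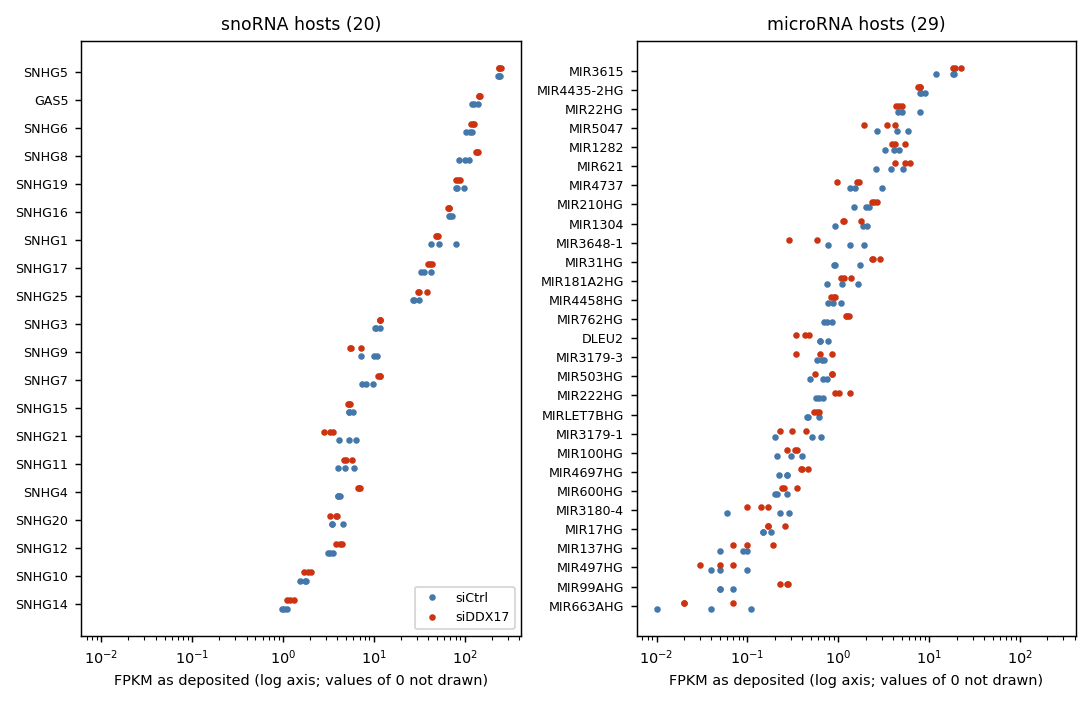
Level of each host transcript in FPKM as deposited (log axis), with 1 point per library for siCtrl (blue) and siDDX17 (red), the snoRNA hosts at left and the microRNA hosts at right, ordered by the siCtrl mean. SNHG5 stands highest at 240 FPKM in siCtrl, MIR99AHG is near the bottom at 0.0567, and its siDDX17 points lie to the right of its siCtrl points.

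Of the 49 hosts, 44 had enough reads to be tested, and 15 of them (34.1%) passed the test at an adjusted p under 0.05, against 48.8% of all tested genes. There were 8 higher in siDDX17, where the background was 24.5%, and 7 lower, where it was 24.3%. The share was 35% for the snoRNA hosts, 7 of 20, and 33.3% for the microRNA hosts, 8 of 24. All 8 of the latter were among the 17 tested host genes (47.1%), since 0 of the 7 tested rows named for a microRNA passed edgeR's quasi-likelihood test. That number was also 0 at an unadjusted p under 0.05 and with DESeq2. The median log2 fold change was -0.02 for the snoRNA hosts, 0.09 for the microRNA hosts and 0.0051 for all tested genes. The median size of the change, whatever its direction, was 0.18 for the snoRNA hosts, 0.30 for the microRNA hosts and 0.29 for all tested genes. The median level of the tested genes was 30.8 CPM for the snoRNA hosts, 1.17 for the microRNA hosts and 11.8 for all. For the tested rows named for a microRNA it was 0.391 CPM. A change is harder to detect at a low level, and the part of level in these shares was not tested. Changes over 2-fold past the test were found for 2 microRNA hosts, both higher (background 4.65%), and for 0 lower (background 2.92%, and 7.57% in either direction). The number among the snoRNA hosts was 0 in either direction by edgeR, also at an unadjusted p under 0.05, and 0 by DESeq2. The groups of libraries did not overlap for 14 tested hosts, 8 higher (background 28.8%) and 6 lower (background 27.7%, and 56.5% in either direction).

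**Figure D2:**
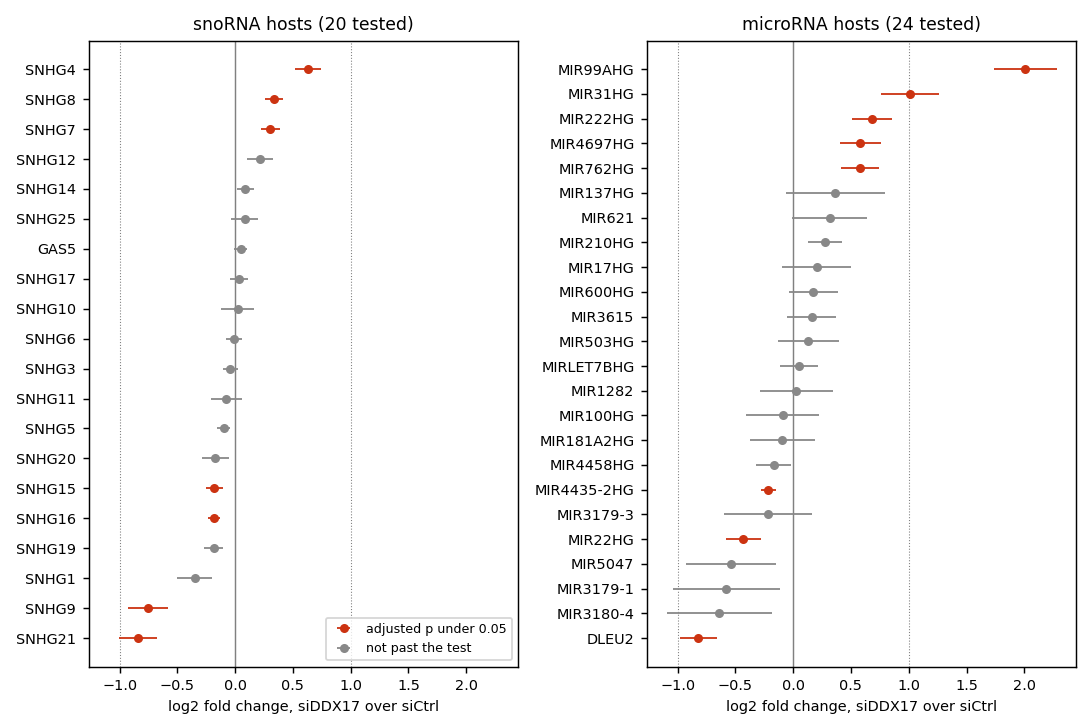
Log2 fold change of siDDX17 over siCtrl for each of the 44 tested hosts, with bars of 1 SE from the edgeR fit, in red where the adjusted p was under 0.05, and dotted lines at a 2-fold change. Among snoRNA hosts the values run from -0.84 (SNHG21) to 0.63 (SNHG4), among microRNA hosts from -0.82 (DLEU2) to 2.01 (MIR99AHG).

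MIR99AHG had the largest change of the 44. This long noncoding gene on chr21:15928296-16646364 carries the miR-99a, let-7c and miR-125b-2 hairpins, of which the miR-99 family is known to target the growth kinase mTOR. It was at 0.266, 0.245 and 0.374 CPM in the siCtrl libraries and at 1.30, 1.10 and 1.25 CPM in the siDDX17 libraries. The groups did not overlap, and the reads behind them were 9, 7 and 14 against 50, 40 and 48. The log2 fold change was 2.01 ± 0.27 (SE), a 4.02-fold rise (adjusted p = 4.81e-05, edgeR's quasi-likelihood test). MIR100HG, the host of the cluster with the same seeds, was at 0.473, 0.350 and 0.640 CPM in siCtrl and at 0.519, 0.494 and 0.389 CPM in siDDX17, with a log2 fold change of -0.09 ± 0.32 (adjusted p = 0.837 by the same test). The difference between these 2 hosts was not tested. MIR100HG and MIRLET7BHG carry let-7 microRNAs too, and MIR4458HG carries miR-4458, which has the let-7 seed. Unlike those of MIR99AHG, the let-7 hairpins of MIR100HG and MIRLET7BHG lie outside the canonical transcript in GENCODE release 44. The identifier of MIR100HG in the counts was not in that release. MIRLET7BHG was at 2.66 ± 0.545 CPM in siCtrl and 2.73 ± 0.197 in siDDX17, and MIR4458HG at 4.13 ± 0.798 and 3.66 ± 0.23 (SD, n = 3). Neither passed the test. PRR34-AS1, which overlaps MIRLET7BHG on the same strand, fell by 0.82 on the log2 scale (adjusted p = 1.33e-05, quasi-likelihood test).

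MIR31HG, on chr9:21380073-21559891, is a long noncoding RNA studied in senescence and carries miR-31. Its siCtrl libraries were at 0.709, 1.43 and 0.747 CPM, siCtrl 2 being the highest, and its siDDX17 libraries at 1.82, 2.17 and 1.71 CPM, all above them. It rose by 1.01 ± 0.25 on the log2 scale (adjusted p = 0.00487, edgeR's quasi-likelihood test). This value is at the 2-fold limit and was 0.83 without siCtrl 1 and 1.37 without siCtrl 2. IFNE, a gene on the same strand within its span, was at 0.36 ± 0.109 CPM in siCtrl and 0.325 ± 0.149 in siDDX17 and did not pass.

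MIR222HG is the host of miR-221 and miR-222, known for targeting the cell-cycle inhibitor p27 (CDKN1B). It was at 1.80, 1.78 and 2.05 CPM in siCtrl and at 2.83, 2.61 and 3.66 CPM in siDDX17. The groups did not overlap and it rose by 0.69 ± 0.17 on the log2 scale (adjusted p = 0.00487 by the quasi-likelihood test). MIR762HG, at 1.65, 1.54 and 1.39 CPM in siCtrl, was at 2.36, 2.28 and 2.21 in siDDX17, again without overlap, a log2 fold change of 0.58 ± 0.16 (adjusted p = 0.0101). MIR4697HG went from 1.51, 1.26 and 1.55 CPM to 2.05, 2.03 and 2.41, a log2 fold change of 0.58 ± 0.18 (adjusted p = 0.0145). Its groups did not overlap either, but its adjusted p was 0.057 without siCtrl 2 and 0.0738 without siDDX17 3. MIR762HG lies opposite BCL7C, a subunit gene of the BAF chromatin remodelling complexes, which did not pass (log2 fold change -0.08). The library kit kept the strand, but whether the counting used it is not stated, so reads of a host and of a gene on its other strand may not be separated.

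DLEU2 had the largest fall among the 24 tested microRNA hosts. It lies on chr13:49956670-50125720, in the region deleted in chronic lymphocytic leukaemia, and carries miR-15a and miR-16-1, which target the survival gene BCL2. It was at 3.87, 3.32 and 3.23 CPM in siCtrl and at 1.61, 2.06 and 2.23 CPM in siDDX17, without overlap. The log2 fold change was -0.82 ± 0.16, which is 43.4% lower (adjusted p = 0.000993, edgeR's quasi-likelihood test). Its opposite-strand neighbours TRIM13 (0.00, adjusted p = 0.967) and DLEU1 (-0.10, adjusted p = 0.384) did not pass. SMC4, a condensin gene whose introns carry the related cluster of miR-15b and miR-16-2, fell by 0.45 on the log2 scale (adjusted p = 0.000214). MIR497HG, whose miR-195 and miR-497 share the seed of miR-15a and miR-16, had between 4 and 15 reads per library and was not tested.

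MIR22HG, a stress-responsive gene with miR-22 in an exon, was at 25.0, 16.9 and 14.7 CPM in siCtrl and at 13.9, 13.2 and 14.8 CPM in siDDX17. The groups overlapped, and siCtrl 1 was far above the other 5 libraries. Its log2 fold change of -0.43 ± 0.15 passed the test (adjusted p = 0.0302), but it was -0.18 without siCtrl 1, where it did not pass (adjusted p = 0.0804 by the quasi-likelihood test). WDR81, on the other strand, was also lower (-0.29, adjusted p = 0.0023). MIR4435-2HG was the most abundant microRNA host gene per length, as above, and its siCtrl libraries were at 57.4, 58.1 and 64.7 CPM against 49.5, 53.4 and 52.4 in siDDX17. The groups did not overlap and the log2 fold change was -0.21 ± 0.06 (adjusted p = 0.0128). The call was lost in 5 of 16 alternatives: with library size only (-0.09), on both FPKM scales (-0.08), without siCtrl 3 (-0.16) and without siDDX17 1 (-0.18). It has a near-identical copy, LINC00152, which had a log2 fold change of -0.20 (adjusted p = 0.0316, quasi-likelihood test). Only uniquely mapped reads were counted, so reads that fit both copies are left out and both levels may be too low. BCL2L11, a pro-apoptotic gene that overlaps MIR4435-2HG on the other strand, rose by 0.63 (adjusted p = 7.02e-05 by the same test).

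The 5 microRNA hosts with the highest mean CPM among those that did not pass were MIR210HG, MIR4458HG, MIRLET7BHG, MIR3615 and MIR600HG. MIR210HG, whose miR-210 is a classic hypoxia microRNA, was at 3.63, 5.21 and 5.42 CPM in siCtrl and at 5.37, 6.23 and 5.68 in siDDX17, a log2 fold change of 0.28 ± 0.15 (adjusted p = 0.138). It was 0.10 without siCtrl 1, and it passed with library size only (0.40, adjusted p = 0.036) and on both FPKM scales. MIR3615 was at 1.55 ± 0.40 CPM in siCtrl and 1.73 ± 0.165 in siDDX17, and MIR600HG at 1.46 ± 0.234 and 1.66 ± 0.361 (SD, n = 3). In all 5 the groups overlapped. MIR17HG, the host of the miR-17-92 oncogenic cluster, had 0.486 ± 0.0647 CPM in siCtrl and 0.562 ± 0.143 in siDDX17, and MIR503HG 0.877 ± 0.194 and 0.947 ± 0.203. These low levels carry large errors, an SE of 0.30 for MIR17HG and 0.26 for MIR503HG on the log2 scale, so changes of that size were not detectable at this depth. The 5 hosts not tested for lack of reads were MIR1304, MIR663AHG, MIR497HG, MIR3648-1 and MIR4737, with 30 to 48 reads in total. MIR3648-1 had 5, 11 and 10 reads in siCtrl and 4, 0 and 2 in siDDX17.

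**Figure D3:**
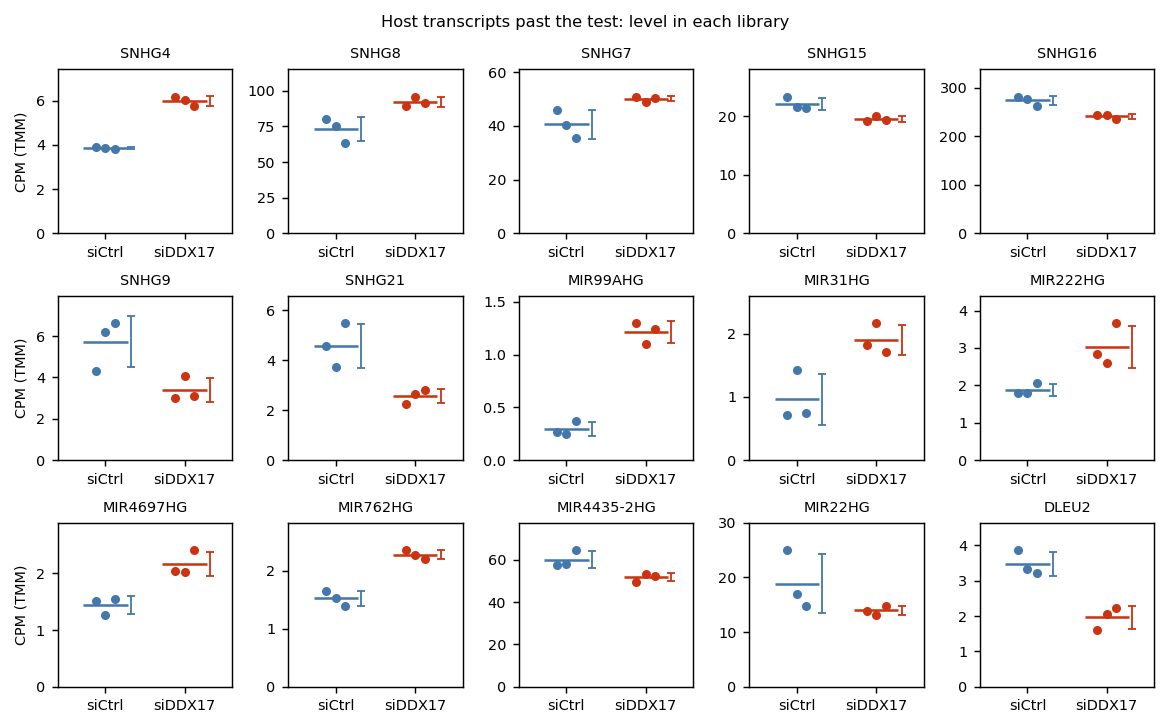
Level in CPM (TMM-scaled, linear axis from 0) of the 15 hosts that passed the test, with 1 point per library, a horizontal line at the group mean and a bar of 1 SD beside it (n = 3), siCtrl in blue and siDDX17 in red. The groups are apart in every panel but that of MIR22HG, where siCtrl 3 at 14.7 CPM lies under siDDX17 3 at 14.8.

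Among the snoRNA hosts, the 3 that rose all carry box H/ACA snoRNAs, but so, mainly, do 9 of the 20 and 2 of the 4 that fell. Of all tested genes, 24.5% were higher and 24.3% lower. With library size only, 6 snoRNA hosts were higher, among them GAS5, which carries mainly box C/D snoRNAs. The siCtrl libraries of SNHG4 were at 3.90, 3.88 and 3.82 CPM and its siDDX17 libraries at 6.18, 6.03 and 5.74. The groups were far apart beside their spread, and it rose by 0.63 ± 0.11 on the log2 scale (adjusted p = 0.000407, edgeR's quasi-likelihood test). SNHG4 overlaps MATR3, a nuclear matrix protein gene on the same strand, which was at 108 ± 6.75 CPM in siCtrl and 118 ± 5.49 in siDDX17 and did not pass (0.14, adjusted p = 0.0816). SIL1 on the other strand rose by 0.31 (adjusted p = 0.00121).

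SNHG8, the host of SNORA24, was at 80.3, 75.2 and 63.6 CPM in siCtrl and at 89.5, 95.9 and 91.2 CPM in siDDX17. The groups did not overlap and the log2 fold change was 0.34 ± 0.08 (adjusted p = 0.00255). SNHG7, the host of SNORA17A and SNORA17B, was at 46.1, 40.2 and 35.4 CPM in siCtrl and at 50.9, 49.0 and 50.2 CPM in siDDX17, a log2 fold change of 0.30 ± 0.08 (adjusted p = 0.00752), again without overlap. In both, siCtrl 1 was the control library nearest to siDDX17. The opposite-strand genes FAM69B and PRSS12 did not pass.

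SNHG21 and SNHG9 had the largest falls among the snoRNA hosts. SNHG21, on chr15:82750564-82757206, carries SCARNA15. It was at 4.55, 3.71 and 5.47 CPM in siCtrl and at 2.23, 2.66 and 2.80 CPM in siDDX17, without overlap, a log2 fold change of -0.84 ± 0.16 (adjusted p = 0.000823). A row named SCARNA15, annotated as a long noncoding RNA and not as a scaRNA, overlaps SNHG21 on the same strand. That row had 0.432 ± 0.0209 CPM in siCtrl and 0.264 ± 0.0527 in siDDX17 and did not pass (-0.70, adjusted p = 0.102). Its values cannot be read as the level of the scaRNA. SNHG9 carries SNORA78 next to the ribosomal protein gene RPS2. It was at 4.31, 6.22 and 6.62 CPM in siCtrl and at 3.01, 4.09 and 3.09 CPM in siDDX17. The groups did not overlap, although siCtrl 1 came close to siDDX17 2, and the log2 fold change was -0.75 ± 0.17 (adjusted p = 0.00281). RPS2 did not pass (0.13, adjusted p = 0.159).

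SNHG16 and SNHG15 fell by smaller amounts. SNHG16, an abundant host of the box C/D snoRNAs SNORD1A, SNORD1B and SNORD1C, was at 281, 276 and 263 CPM in siCtrl and at 243, 245 and 235 CPM in siDDX17, without overlap (log2 fold change -0.18 ± 0.05, adjusted p = 0.0123). SNHG15, a short-lived transcript with SNORA9, was at 23.3, 21.6 and 21.4 CPM in siCtrl and at 19.1, 20.1 and 19.4 CPM in siDDX17. Its groups did not overlap, and its log2 fold change was also -0.18 ± 0.07, but its adjusted p of 0.0498 was at the limit and passed under 1 of 16 alternatives. SNHG16 lost its call without siDDX17 3 (adjusted p = 0.0737), with library size only (-0.06, adjusted p = 0.342) and on both FPKM scales (-0.05, adjusted p up to 0.346).

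The 5 snoRNA hosts with the highest mean CPM among those that did not pass were SNHG5, GAS5, SNHG6, SNHG1 and SNHG17. GAS5, the growth arrest transcript with 10 box C/D snoRNAs in its introns, was at 241, 220 and 226 CPM in siCtrl and at 235, 237 and 239 in siDDX17, a log2 fold change of 0.05 ± 0.06 (adjusted p = 0.495). It passed with library size only (0.17, adjusted p = 0.0294) and on both FPKM scales (0.18). SNHG5 was at 470, 505 and 507 CPM against 473, 459 and 451 (-0.10 ± 0.06, adjusted p = 0.161). SNHG6 was at 120 ± 10.9 CPM in siCtrl and 120 ± 2.77 in siDDX17, and SNHG17 at 52.1 ± 5.81 and 53.3 ± 3.65 (SD, n = 3). In all of these the groups overlapped. SNHG1, the host of 8 box C/D snoRNAs and a known substrate of nonsense-mediated decay, was spread most: 135, 92.4 and 73.7 CPM in siCtrl against 79.2, 80.7 and 76.5 in siDDX17. Its log2 fold change was -0.35 ± 0.15 (adjusted p = 0.0737), -0.08 without siCtrl 1 and -0.53 without siCtrl 3, where it passed (adjusted p = 0.00117). By class, 3 of the 9 box H/ACA hosts rose and 2 fell, 0 of the 7 box C/D hosts rose and 1 fell, and 1 of the 3 scaRNA hosts fell, where 24.5% of all tested genes were higher and 24.3% lower. The difference between the classes was not tested.

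**Figure D4:**
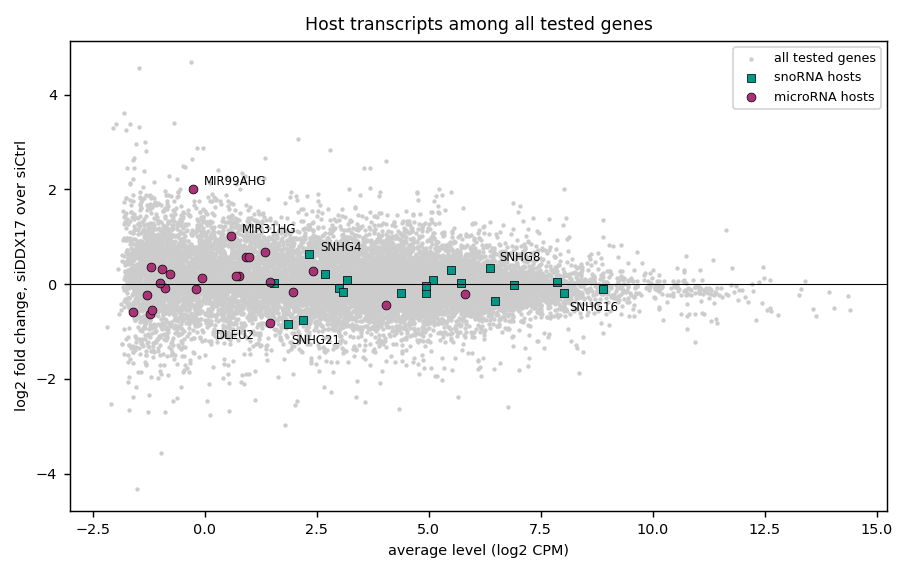
Average level (log2 CPM) against log2 fold change of siDDX17 over siCtrl for the 15615 tested genes (grey), with the snoRNA hosts as green squares and the microRNA hosts as purple circles. The snoRNA hosts lie between -0.84 and 0.63, and MIR99AHG at 2.01 is the host farthest from 0.

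The direction of the 15 changes was the same under 16 alternatives of scaling, filter, test, unit and libraries, and 9 of them passed in all 16, namely SNHG4, SNHG7, SNHG8, SNHG9, SNHG21, MIR31HG, MIR222HG, MIR762HG and DLEU2. MIR99AHG passed in the 15 that could test it. The call limits of the study's methods (p under 0.01, 1.5-fold) are not among the 16. SNHG7 (1.24-fold), SNHG8 (1.26-fold) and MIR762HG (1.4965-fold) did not reach them, and the others of the 9 and MIR99AHG did. Scaling by library size only moved the median of all genes from 0.0051 to 0.13, and the snoRNA hosts past the test from 3 higher and 4 lower to 6 higher and 2 lower. The microRNA hosts then had 6 higher and 1 lower, in place of 5 and 3. Relative to that shifted median SNHG4 was at 0.62 and SNHG16 at -0.19, although SNHG16 did not pass there. Without siCtrl 1, SNHG19 (-0.27) and SNHG5 (-0.14) passed in addition, and MIR22HG and SNHG15 did not.

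**Figure D5:**
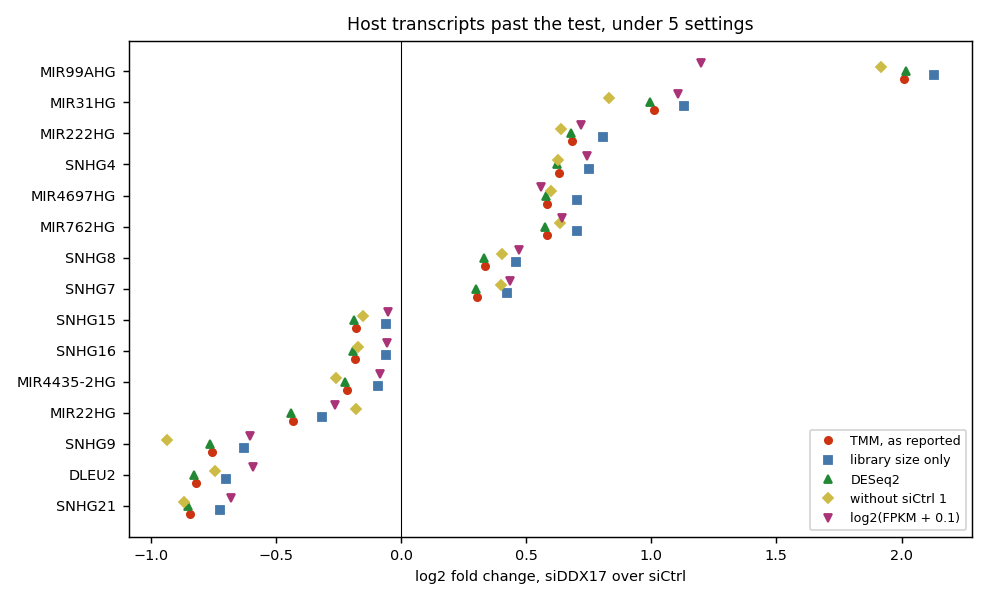
Log2 fold change of the 15 hosts under TMM scaling as reported (red circles) and 4 alternatives: library size only, DESeq2, without siCtrl 1, and limma on log2(FPKM + 0.1). MIR99AHG runs from 1.20 to 2.13, MIR22HG moves from -0.43 to -0.18 without siCtrl 1, and no host crosses 0.

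The symbols chosen cover few of the genes that hold small RNAs. In GENCODE release 44, 248 other tested genes span a snoRNA or scaRNA on their own strand, and are called snoRNA-bearing here. In the same way 822 span a microRNA. Most of these genes code for a protein. Of the snoRNA-bearing genes 58 rose and 59 fell (47.2%), and of the microRNA-bearing genes 234 rose and 199 fell (52.7%), beside the 48.8% of all tested genes. Among those that do not code for a protein, closest in kind to the hosts above, 6 of 18 snoRNA-bearing genes (33.3%) and 14 of 51 with a microRNA (27.5%) passed. The 18 are not all separate from the hosts: they include the row named SCARNA15, which overlaps SNHG21 on the same strand. The median levels of these noncoding genes were low, at 2.65 and 1.48 CPM, against 11.8 CPM for all tested genes. Among genes past the test whose mean log2 CPM was 3 or more and whose groups did not overlap, the largest rises of microRNA-bearing genes were those of MICAL2 (1.94 ± 0.06, MIR6124), FOXP4 (1.85 ± 0.06, MIR4641) and SVIL (1.65 ± 0.07, MIR604 and MIR938). The largest falls, within the same limits, were those of GDF15 (-1.80 ± 0.11, MIR3189), the imprinted gene MEST (-1.77 ± 0.08, MIR335) and the mitotic kinesin gene KIF18B (-1.70 ± 0.08, MIR6783). Of the snoRNA-bearing genes within these limits, P4HA3 (1.26 ± 0.07), SLC39A11 (0.96 ± 0.07) and C14orf159 (0.88 ± 0.08) rose most, and RP11-2C24.9 (-1.12 ± 0.09), SLC47A1 (-1.03 ± 0.07) and NFATC3 (-0.82 ± 0.14) fell most (log2 fold changes ± SE). The small RNA annotated in SLC39A11 is an unnamed scaRNA. Those in P4HA3 and NFATC3 are unnamed snoRNAs, that of P4HA3 outside the canonical transcript.

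Genes of small RNA processing and function, of snoRNPs, of nonsense-mediated decay and of the cytosolic ribosome were counted in lists. Many of them do not act on the host transcripts themselves. Their counts stand beside 24.5% higher and 24.3% lower among all tested genes. Of 21 tested small RNA processing genes, 1 rose and 10 fell (52.4% in either direction, against 48.8% of all tested genes), with a median of -0.19. AGO2, the slicing Argonaute, went from 54.6 ± 1.82 to 25.1 ± 1.11 CPM (log2 fold change -1.12 ± 0.06, adjusted p = 1.8e-08), and HNRNPA1, which binds some microRNA hairpins, from 640.1 ± 24.8 to 313 ± 13.3 CPM (-1.03 ± 0.06, adjusted p = 1.87e-08). DROSHA was the gene that rose, from 17.7 ± 0.0839 to 29.2 ± 1.96 CPM (0.72 ± 0.07), while its partner DGCR8 fell from 22.5 ± 0.212 to 13.1 ± 0.715 CPM (-0.78 ± 0.07). Of 17 snoRNP genes, 3 rose and 6 fell (52.9%), or 7 and 3 with library size only. NOLC1, a snoRNP chaperone of the nucleolus and Cajal bodies, rose from 55.3 ± 2.14 to 181 ± 3.11 CPM (1.71 ± 0.06, adjusted p = 3e-10), and the pseudouridine synthase DKC1 of box H/ACA snoRNPs fell from 94.1 ± 0.235 to 72.8 ± 1.85 CPM (-0.37 ± 0.05). SHQ1 (0.22) and RUVBL2 (0.19) were the others that rose, and each passed in 2 of the 6 fits with a library left out. Of the snoRNP genes that fell, NHP2 passed in 2 of these fits and NOP56 in 1, and DKC1, ZNHIT6, NHP2L1 and GAR1 in all 6. Of the small RNA processing genes that fell, SRSF3 passed in 1 of these fits, KHSRP in 5 and the others in all 6. Of 17 nonsense-mediated decay genes 58.8% passed: 2 rose, UPF2 (0.48 ± 0.08) and CASC3 (0.27 ± 0.05), and 8 fell, with SMG5 at -0.50 ± 0.06, or 4 and 4 with library size only. Of 85 tested ribosomal protein genes and paralogs, 5 rose and 14 fell (22.4%). RPL26L1 (1.19 ± 0.06) and RPL22L1 (1.16 ± 0.07), both paralogs, rose most. Without siCtrl 1 the number lower was 60, and with library size only 15 rose and 3 fell.

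The siRNA strands can act like microRNAs through bases 2 to 8. The string TATTGCT, which pairs with these bases of the antisense strand in the duplex against DDX17, occurred in the canonical transcripts of 3 of 40 hosts (7.5%), MIR137HG, SNHG10 and SNHG15, and in 19% of the 15443 transcripts of tested genes. The string for its sense strand, ATGGGTG, occurred in 3 (MIR22HG, SNHG12 and SNHG6) and in 16.7% of all. For the control duplex, that for the sense strand, TCGGAGA, was in 1 host, MIR600HG, against 10.2% of all, and that for the antisense strand, TGTCACG, in 0 against 6.44%. Of the 3 hosts with TATTGCT 1 passed the test, SNHG15, and of the 3 with ATGGGTG 1 passed, MIR22HG, both lower. Among all tested genes 48.8% passed and 24.3% were lower. SNHG15 held its call in 1 of 16 alternatives and MIR22HG in 8 of 16. The share of all genes with these strings that passed was not computed, and a role of the strings was not tested. Only the given strand of the spliced transcript was searched, and its length was not taken into account.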

How the data were processed

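Reads were trimmed by the authors and aligned with TopHat2 to GRCh38 (up to 4 mismatches), and raw counts of uniquely mapped reads per gene were deposited for the 6 libraries. The counting program, the annotation release and the use of strand are not given in the sources used here. The deposited FPKM, which the authors normalised for gene length and library size, cover 29242 of the 29476 genes and were used for levels between genes. Per the labels, the libraries fall into 3 siCtrl and 3 siDDX17 replicates.

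The counts were analysed with edgeR 4.0.16 in R 4.3.3: TMM scaling, filterByExpr, which kept 15615 genes, and the quasi-likelihood fit and F test, with p-values adjusted over these genes by the Benjamini-Hochberg method. Passing the test means an adjusted p under 0.05, and a second rule adds an absolute log2 fold change over 1. The SE of a fold change is its size divided by the square root of F. Only the main fit was also run on simulated counts, with few changed genes and the same dispersion for every gene and library. The data here differ in both, so that run does not show how well the fit works on them. Filtering removed 5 hosts, and scaling sets the zero of every fold change, so both were varied, with DESeq2 1.42.0, limma 3.58.1 on log2(FPKM + 1) and log2(FPKM + 0.1), the exact test of edgeR, a replicate block, the call limits that the study's methods state (p under 0.01, 1.5-fold) and each library left out in turn. Counting error alone limits hosts with few reads.

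Named are DDX17, DDX5, each host past the test, the 5 most abundant others of each kind, the 3 largest rises and falls among other genes that carry small RNAs (at least 3 log2 CPM on average, no overlap of groups), and of each list the genes past the second rule and the 2 largest changes. Hosts named beyond this rule, for a related seed or cluster or for lack of a test, were chosen after their values were seen. The hosts, lists and tests were chosen with earlier results of these data known. Positions are from GENCODE release 44 on GRCh38, which held the identifiers of 44 of the 49 hosts and 98.9% of the tested genes. Splicing was not analysed here, and the sequence of a small RNA in 1 of the hosts is not reported here.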

Additional observations from a re-analysis of the deposited data

How the results depend on the processing

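The fits were repeated under 17 alternatives. With library size only, genes lower in siDDX17 numbered 2494, snoRNA hosts 6 higher and 2 lower, microRNA hosts 1 lower, other snoRNA-bearing genes 88 higher and 35 lower, small RNA processing genes 2 higher, snoRNP genes 7 higher and 3 lower, decay genes 4 higher and 4 lower, and ribosomal proteins 15 higher and 3 lower, with medians of 0.10 for snoRNA hosts and 0.13 for all genes. With log2(FPKM + 0.1) and log2(FPKM + 1), which have no TMM factor, genes lower numbered 2374 and 2369, genes past 2-fold 210 lower with the former and 160 higher and 89 lower with the latter, snoRNA hosts 5 higher and 2 lower in both, microRNA hosts 1 lower in both, other snoRNA-bearing genes 88 higher (0.1 only) and 31 lower in both, other microRNA-bearing genes 124 lower in both, snoRNP genes 6 higher in both and 1 and 2 lower, decay genes 4 higher and 2 lower in both, and ribosomal proteins 14 and 15 higher and 2 lower in both. Their medians were 0.11 and 0.088 for snoRNA hosts and 0.12 and 0.068 for all genes, and with a pseudocount of 1 the number of microRNA hosts past 2-fold was 0. Under the limits of the methods, 1713 genes were higher and 1254 lower, snoRNA hosts 1 and 2, microRNA hosts 3 and 1, other snoRNA-bearing genes 22 and 12, other microRNA-bearing genes 93 and 60, snoRNP genes 1 and 0, decay genes 0 and 0, ribosomal proteins 2 and 2, and 4 small RNA processing genes were lower. These counts under the limits of the methods come from the fit used here, and the study itself reports fewer genes in each direction. MicroRNA hosts higher past 2-fold numbered 1 with DESeq2 and with at least 10 counts in every library, and without a filter 1 was lower, MIR3648-1 (-2.24, adjusted p = 0.00838, quasi-likelihood test). Ribosomal proteins lower numbered 9 with at least 10 counts, 25 without a filter and 5 with upper quartile scaling, which put the snoRNA host median at 0.0060.

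With each library left out in turn, snoRNA hosts lower ranged from 2 (without siDDX17 3) to 5 (without siCtrl 1), with 3 higher each time, and microRNA hosts lower from 1 (without siDDX17 1) to 4 (without siCtrl 2). Past 2-fold, microRNA hosts higher ranged from 1 to 2, and lower from 0 to 1, the 1 being MIR3180-4 (-1.02) without siCtrl 2. The snoRNA host median ranged from -0.053 to -0.027, small RNA processing genes higher from 1 to 2, snoRNP genes higher from 1 to 2, and ribosomal proteins lower from 3 (without siDDX17 3) to 60 (without siCtrl 1). The cause of these shifts was not tested.

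Hosts near 0 changed sign. SNHG6 was at 0.022 with upper quartile scaling, 0.12 with library size only and both FPKM scales and 0.0039 with at least 10 counts. SNHG5 was at 0.024 with library size only and 0.030 with both FPKM scales, and DDX5 at 0.014 and 0.019. With libraries left out, SNHG6 ranged from -0.086 to 0.044, MIRLET7BHG from -0.043 (without siCtrl 3) to 0.21, SNHG17 from -0.045 (without siCtrl 3) to 0.11, MIR600HG from -0.019 (without siDDX17 3) to 0.32, and MIR3615 from -0.052 (without siCtrl 1) to 0.29. MIR4435-2HG did not pass in 5 alternatives and MIR22HG in 8, DESeq2 among them. The deviations of same-numbered libraries from their group means had correlations of 0.0070, 0.041 and -0.056, so no effect shared by number was seen. These values cannot show whether the libraries were made in pairs. With the replicate block, 3743 genes were higher and 3738 lower, snoRNA hosts 3 and 3 and microRNA hosts 5 and 3, and SNHG15 did not pass (adjusted p = 0.0692, quasi-likelihood test).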
